A study of Mus musculus with 18 samples.

Results

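Serotonin receptor genes were followed across 6 RNA-Seq libraries of the ventral dentate granule cell layer. The 10 genes were Htr1a, Htr1b, Htr1d, Htr2a, Htr2c, Htr3a, Htr4, Htr5a, Htr5b and Htr7, picked by symbol from the 34620 genes counted. Htr2a was the receptor gene with the clearest change: it rose 2.69-fold in F1 and 3.47-fold in F2 relative to WT. Htr7 rose 1.69-fold in F1. Both F1 calls were lost in some other tests or settings, whereas the F2 call of Htr2a held in 16 of 16. Htr1a, the gene with 1 deleted copy in the mothers of F1 males, had by far the highest level per kilobase, and its differences from WT did not pass the test.

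Serotonin reaches the hippocampus through axons of the raphe nuclei and acts on a family of receptors that differ in the signal they send. The Htr1 receptors and Htr5a couple to Gi/o proteins, which lower cyclic AMP and open GIRK potassium channels. Htr5b was grouped with them as a close relative of Htr5a. The Htr2 receptors couple to Gq and phospholipase C, Htr4 and Htr7 couple to Gs and raise cyclic AMP, and Htr3a encodes a subunit of a cation channel. In the dentate gyrus, granule cells are known as a main site of postsynaptic Htr1a, while Htr3a is known mostly from interneurons.

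All animals were adult male Swiss Webster mice, and all were wild type themselves at the Htr1a locus. WT males had WT mothers and grandmothers. F1 males were the wild-type offspring of crosses between heterozygous parents, with a 5HT1A-/+ mother and grandmother. F2 males were the offspring of F1 females and WT males, with a WT mother and a 5HT1A-/+ grandmother. Each group had 2 libraries, and both comparisons with WT use the same 2 WT libraries. The ventral dentate gyrus was microdissected from frozen sections, without sorting of cells. The sources do not say how many animals went into a library, so p-values measure the spread between these libraries only.

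Reads counted on genes ranged from 26358165 to 33727936 per library. Granule cell markers were abundant: the 6 listed genes summed to 1030 and 1080 CPM (reads per 1000000 reads counted on genes, after TMM scaling of library sizes) in WT, 892 and 1110 in F1, and 1410 and 1230 in F2, and none of them passed the test in F1 or F2. Markers of other cells were present too. Astrocyte markers summed to 1210 and 1270 CPM in WT, 1460 and 1790 in F1, and 1990 and 1620 in F2. Oligodendrocyte markers summed to 1060 and 1940 CPM in WT, 2860 and 2160 in F1, and 1470 and 2790 in F2, with 2 of 6 called higher (q under 0.01) in F1 and 1 of 6 in F2, where 3.77 and 3.87% of all genes tested were. Microglial markers summed to 108 and 109 CPM in WT, 128 and 149 in F1, and 165 and 143 in F2. In such bulk tissue, fewer cells of a type and less RNA per cell cannot be told apart. Reads outside annotated exons were 12.6 and 14.2% of all reads in WT and 9.18 to 11.6% in the 4 libraries of F1 and F2, so this share moved with the comparisons with WT, and its part in the changes was not tested. The 3 listed markers of serotonin neurons were at low levels, with a sum of 0.774 to 1.41 CPM. The transcription factor gene Fev was at 0 reads in all 6 libraries, and the serotonin transporter gene Slc6a4 lay between 0.033 and 0.148 CPM. Most of the sum came from Tph2, the gene of an enzyme of serotonin synthesis. It held 19 to 34 reads per library, or 0.668 to 1.26 CPM, and was higher in all libraries of F1 and F2 than in WT. The choroid plexus, a rich source of Htr2c, left little trace as well: Ttr, its most abundant transcript, lay between 0.187 and 1.1 CPM, and of the summed 18.1 to 24.4 CPM of 9 markers, 13.6 to 18.7 came from Kl.

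The first question was which receptors the tissue expressed. A gene was taken as expressed where each of the 6 libraries held at least 10 reads, which was so for 8 of the 10 genes. Htr1b with 5 to 11 reads per library and Htr1d with 6 to 12 fell short. For Htr1b this does not show a low level, because 1202 of its 1273 exon bases overlap exons of a gene on the opposite strand, and reads in exons of more than 1 gene were not counted. Levels between genes were compared as reads per kilobase of exon, scaled to library size like CPM (RPKM). The mean level of Htr1a over the 6 libraries was 13.4 RPKM, with a range of 11.1 to 15.4, and 74.1% of the genes tested had a lower level. Htr4 followed at 3.05 RPKM, then Htr7 at 2.4, Htr3a at 2.31, Htr2c at 1.86 and Htr5a at 1.67. Below them came Htr5b at 0.76 RPKM, Htr2a at 0.594, Htr1b at 0.212 (with the same limit) and Htr1d at 0.0841.

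In this order, the ranges of neighbours were separate only between Htr1a and Htr4 and between Htr5a and Htr5b. Htr4, Htr7, Htr3a, Htr2c and Htr5a thus formed a middle group whose order changed from library to library. Their ranges lay between 1.35 and 4.16 RPKM. Htr2a was above Htr1b in all 6 libraries, although the ranges of both genes over all libraries overlapped. The place of Htr2c depended on the exons counted as its length: with the longest transcript in place of the union of exons its level was 3.55 RPKM, second after Htr1a. The other 4 serotonin receptor genes were counted besides. Htr6, a Gs-coupled receptor, was at 1.77 RPKM, among the middle group, while Htr1f was at 0.209, Htr2b at 0.085 and Htr3b at 0.0291. Htr6 and Htr1f were not called in any comparison, and Htr2b and Htr3b had too few reads to be tested.

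**Figure D1:**
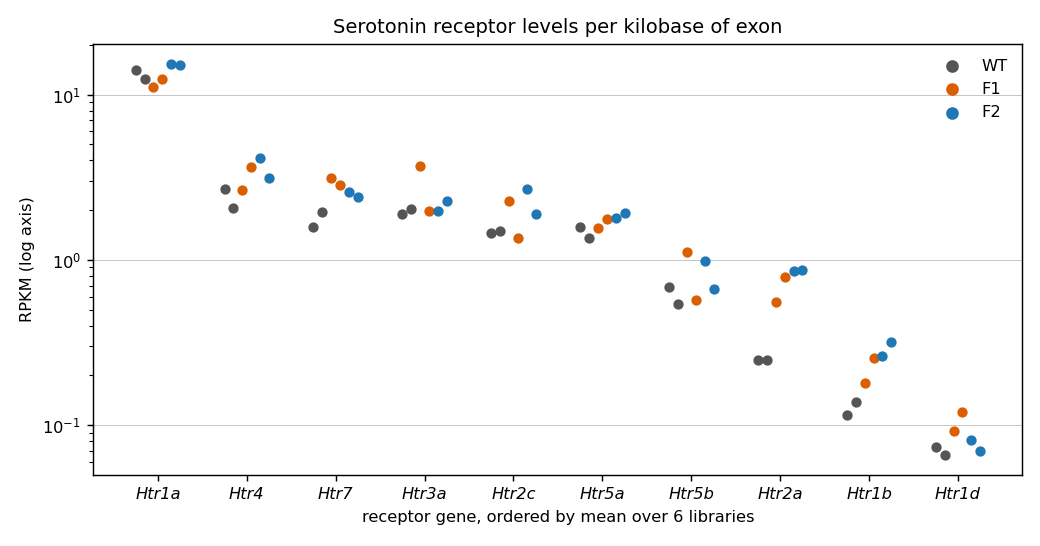
Level of each of the 10 receptor genes in RPKM on a log axis, 1 point per library, coloured by group and ordered by the mean over 6 libraries. Htr1a, between 11.1 and 15.4 RPKM, stands apart from the 5 genes of the middle group, and the WT points of Htr2a, at 0.247 and 0.249 RPKM, lie below its 4 other points.

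Htr1a also dominated the summed level of the 10 genes. The sum was 24.3 and 22.4 RPKM in WT, 26.3 and 25.7 in F1, and 30.8 and 28.6 in F2. Htr1a made up 57.6 and 55.9% of it in WT, 42.2 and 48.2% in F1, and 50.1 and 52.5% in F2. Both F1 and both F2 libraries thus had a smaller share of Htr1a than either WT library. Of the Gs-coupled receptors, Htr4 and Htr7 summed to 4.25 and 3.99 RPKM in WT and to between 5.54 and 6.74 in the other 4 libraries. Htr6, which is outside the 10 genes, was not in this sum. It was at 1.9 and 1.43 RPKM in WT, 2.11 and 2.07 in F1, and 1.55 and 1.58 in F2. Gq-coupled receptors summed to 1.7 and 1.75 RPKM in WT and to between 2.13 and 3.54 elsewhere. No test was made of these sums, which depend on the gene lengths used.

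**Figure D2:**
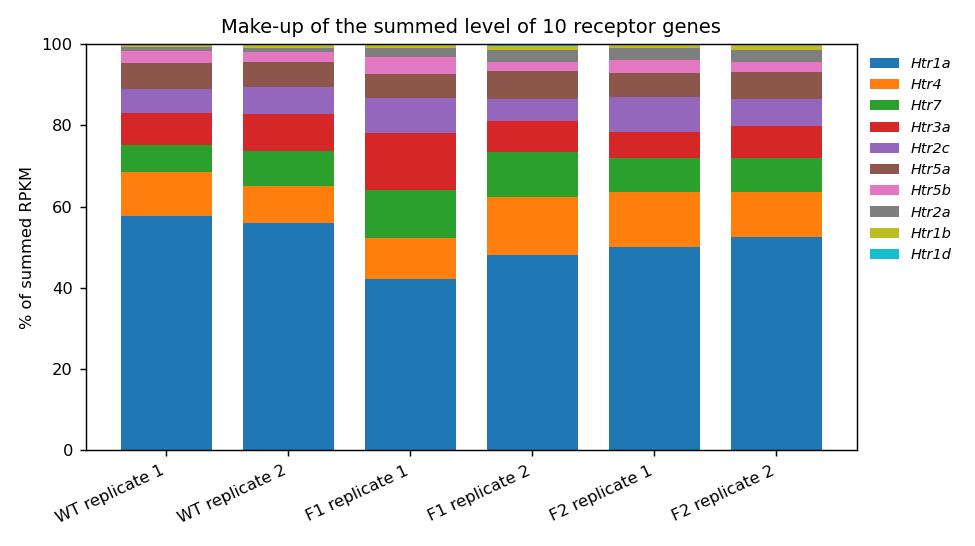
Make-up of the summed RPKM of the 10 receptor genes in each library, as a percentage on a linear axis from 0 to 100. The Htr1a part is the largest in every library, at 57.6 and 55.9% in WT and between 42.2 and 52.5% in F1 and F2.

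The next question was which receptors changed. A gene was called at a q value under 0.01 after Benjamini-Hochberg adjustment of edgeR's exact test over the 17421 genes tested. Htr1d had too few reads to be tested, leaving 9 genes. In F1, 2 of 9 receptors were called, Htr2a and Htr7, both higher, where 12.3% of all genes tested were called in either direction, 3.77% were called higher and 8.54% lower. In F2, 1 of 9 was called, Htr2a, against 12% of all genes in either direction, 3.87% higher and 8.1% lower. At the looser threshold of q under 0.05 the count was still 2 in F1 and rose to 3 in F2 with Htr2c and Htr4, beside 20.8 and 20.7% of all genes. The median log2 fold change of the 9 receptors was 0.44 in F1 and 0.50 in F2, beside 0.009 and 0 for all genes. Log2 fold changes were above 0 for 8 of 9 receptors in F1 and 9 of 9 in F2, and for 50.9 and 50% of all genes. The lean was not particular to the receptors. Of the tested genes that make serotonin or carry its signal, described below, 40 of 49 were above 0 in F1 and 38 of 49 in F2. With 9 genes and shared WT libraries, the receptor counts are a description of the receptors and not a test of the family.

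**Figure D3:**
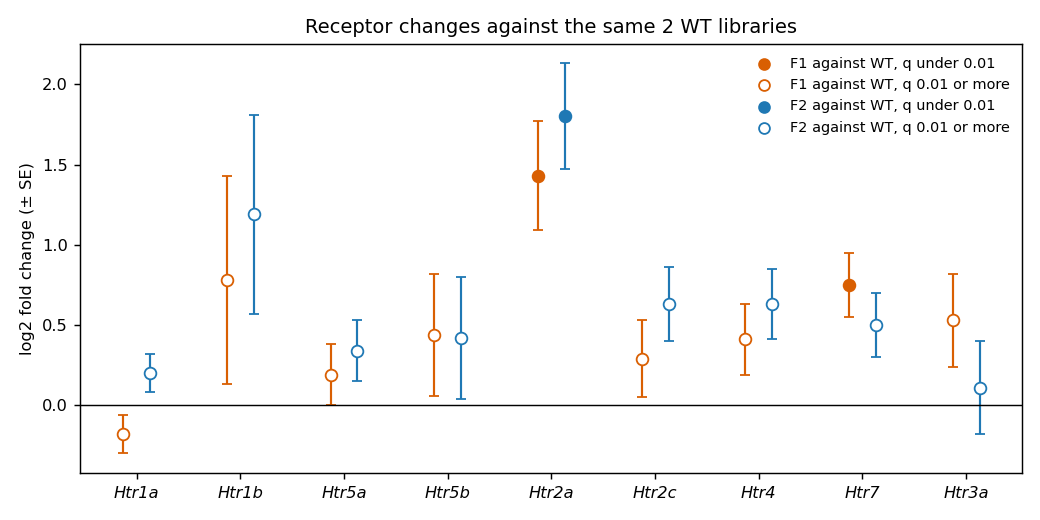
Log2 fold change ± standard error of the 9 receptor genes tested, for F1 (orange) and F2 (blue) against the same 2 WT libraries; filled points have a q value under 0.01. Htr2a is filled in both comparisons, at 1.43 and 1.80, and Htr7 in F1, at 0.75.

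The called receptors and Htr1a lie on different chromosomes and have start regions of different composition. In the mm9 build, Htr1a, a gene with 1 exon, occupies chr13:106233773-106238213 on the plus strand. Htr2a, with 3 exons, spans chr14:75040647-75106666 on the plus strand, and Htr7 spans chr19:36033224-36131997 on the minus strand. The 250 bases before the RefSeq start of Htr7 held 41 CpG dinucleotides, and 98.9% of 32536 promoters held fewer. The same stretch of Htr1a held 6, which is also the median of all promoters, and that of Htr2a held 4. The letters GGGCGG of a GC box, searched on both strands, were found in the Htr1a and Htr2a stretches and in 33.0% of all promoters, and not in that of Htr7. The letters TATAAA (12.3% of promoters), TGACGTCA (1.56%) and CANNTG (66.2%) were in none of these 3 stretches. The sequences are shown because these are the receptor deleted on 1 allele in the mothers of F1 males and the 2 receptors called higher in the offspring. They come from RefSeq (GRCm38.p6 table), were located in mm9 by an exact match of the 250 bases, and are shown only up to where the annotated gene begins, so that Htr1a is whole, Htr2a is cut to 216 bases and Htr7 to 103 bases with 19 of its 41 CpG dinucleotides. The parts shown lie at chr13:106233523-106233772 (plus strand), chr14:75040431-75040646 (plus strand) and chr19:36131998-36132100 (minus strand). Capitals mark CpG dinucleotides.
Htr1a: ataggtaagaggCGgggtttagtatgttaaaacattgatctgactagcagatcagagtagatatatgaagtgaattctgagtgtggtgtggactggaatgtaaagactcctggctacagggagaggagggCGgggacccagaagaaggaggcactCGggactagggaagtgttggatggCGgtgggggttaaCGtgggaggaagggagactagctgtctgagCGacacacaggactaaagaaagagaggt
Htr2a: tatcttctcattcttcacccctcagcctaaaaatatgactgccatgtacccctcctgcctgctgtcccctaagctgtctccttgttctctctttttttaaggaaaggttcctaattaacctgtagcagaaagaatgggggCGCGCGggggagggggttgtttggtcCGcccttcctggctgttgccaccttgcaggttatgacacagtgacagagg
Htr7: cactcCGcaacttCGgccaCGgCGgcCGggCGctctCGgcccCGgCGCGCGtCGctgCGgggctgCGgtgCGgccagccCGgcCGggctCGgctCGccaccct

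Among the Gi/o-coupled receptors, Htr1a had 62.1 and 55.7 CPM in WT, 49.3 and 55.1 in F1, and 68.6 and 66.6 in F2. Both F1 libraries were below both WT libraries, by a narrow margin, and both F2 libraries were above them. Separation of this kind was common, since 30.6% of all genes tested had both F1 libraries below both WT libraries. The log2 fold change of Htr1a was -0.18 (SE 0.12, 95% interval -0.42 to 0.07) in F1 and 0.20 (SE 0.12, interval -0.04 to 0.44) in F2, with q values of 0.332 and 0.266 in edgeR's exact test. These approximate intervals, with 2 libraries a group, reach down to -0.42 in F1 and up to 0.44 in F2. They set no firm limit on a change of Htr1a.

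Htr5a, a forebrain receptor of the same coupling class, had 8.82 and 7.53 CPM in WT, 8.74 and 9.9 in F1, and 10.1 and 10.7 in F2. The F2 libraries were the highest, and F1 overlapped with WT. Its log2 fold changes were 0.19 (SE 0.19) in F1 and 0.34 (SE 0.19) in F2, with q values of 0.542 and 0.199. Htr5b, its close relative, had 1.32 and 1.06 CPM in WT, 2.14 and 1.1 in F1, and 1.91 and 1.3 in F2. Replicate 1 was the higher library in each group, and the groups overlapped. Its log2 fold changes of 0.44 and 0.42 each had an SE of 0.38. In F1 the value was between -0.11 and 0.85 when single libraries were left out, so its direction rested on F1 replicate 1.

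Htr1b, best known as the autoreceptor on serotonin axon terminals, had 0.147 and 0.176 CPM in WT, 0.231 and 0.324 in F1, and 0.336 and 0.408 in F2. The 3 groups did not overlap, yet the counts behind them were 5 and 5, 7 and 10, and 9 and 11 reads. In F2 its log2 fold change was 1.19 (SE 0.62, interval -0.02 to 2.41), with a q value of 0.197. The gene that overlaps it is D430036J16Rik, which held 1 to 11 reads per library. The library kit does not mark strand, and a count without strand leaves out reads within the shared bases, so the level of Htr1b can be far too low and its changes rest on the few reads left. Htr1d, another terminal autoreceptor, had between 0.211 and 0.388 CPM, with the higher values in both F1 libraries. At 14, 21 and 13 reads per group, the counting intervals of WT (0.123 to 0.376 CPM) and F1 (0.212 to 0.524 CPM) overlapped.

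**Figure D4:**
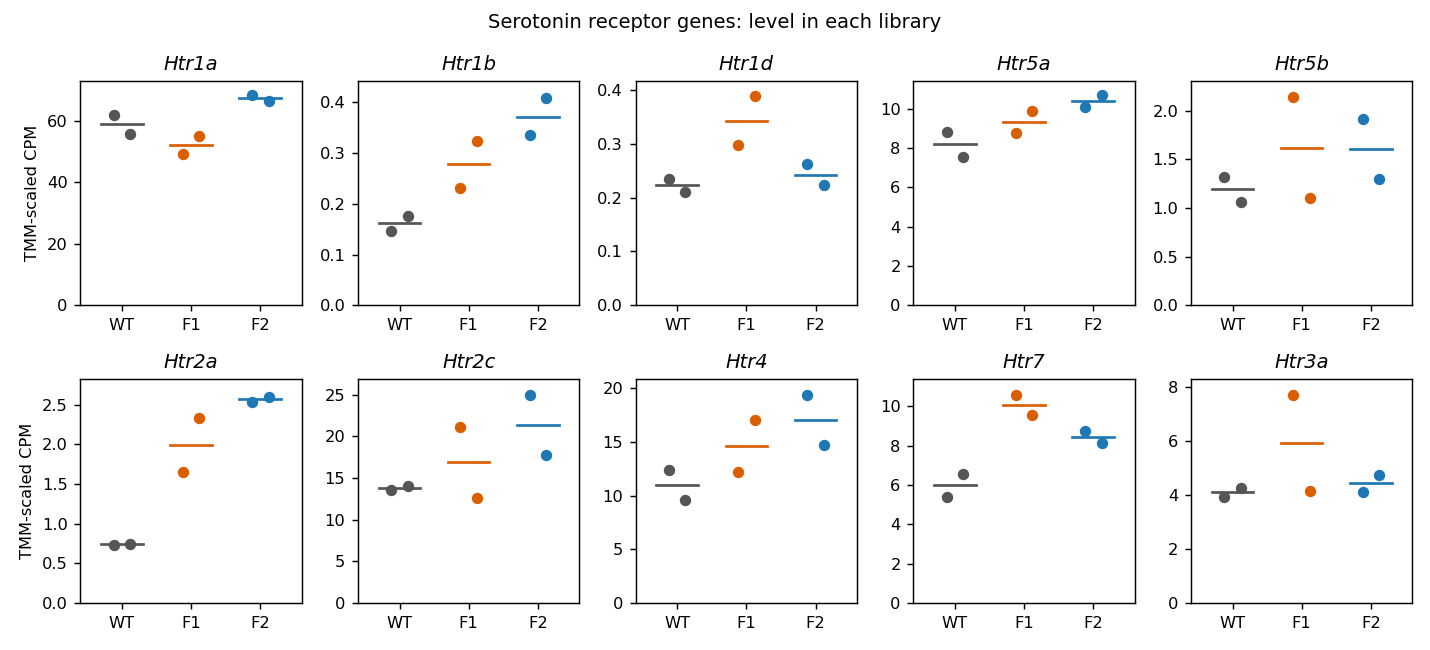
TMM-scaled CPM of each receptor gene in the 6 libraries, 1 panel per gene with a linear axis from 0, points for libraries and lines for group means. Htr2a is at 0.735 and 0.739 CPM in WT and between 1.65 and 2.6 in F1 and F2, whereas in Htr5b and Htr3a both F1 and F2 overlap with WT. In Htr5a, Htr2c and Htr4 only F1 overlaps with WT, and in Htr1d only F2 does.

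Among the Gq-coupled receptors, Htr2a, the target of hallucinogens and of many antipsychotic drugs, had 0.735 and 0.739 CPM in WT, 1.65 and 2.33 in F1, and 2.54 and 2.6 in F2. In reads, these were 46 in the WT libraries together, 122 in F1 and 138 in F2. All 4 libraries of F1 and F2 lay above both WT libraries, and the F2 libraries were the highest. The log2 fold change was 1.43 (SE 0.34, q = 0.000292) in F1 and 1.80 (SE 0.33, q = 2.38e-06) in F2 by edgeR's exact test. The counting intervals of the groups were 0.539 to 0.983 CPM in WT, 1.66 to 2.38 in F1 and 2.16 to 3.04 in F2, and they cover counting error only.

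The F2 call of Htr2a held in 16 of 16 alternatives, with log2 fold changes from 1.78 to 1.82. The F1 call held in 11 of 16, and among those that lost it were q values of 0.0212 without WT replicate 1, 0.0144 without WT replicate 2, 0.0249 without F1 replicate 2 and 0.0104 in DESeq2. Its log2 fold change when single libraries were left out stayed between 1.17 and 1.67. Even after the increase, Htr2a was a gene of low level, at 0.865 RPKM on average in F2 and 0.248 in WT. Astrocyte and microglial marker sums were also higher in all 4 libraries of F1 and F2 than in WT, with 1 of 6 astrocyte markers called higher in F1 and 4 of 6 in F2, and with 0 of 6 and 4 of 6 microglial markers, beside 3.77 and 3.87% of all genes. Endothelial and pericyte markers summed to 125 and 140 CPM in WT and to between 149 and 170 in the other 4 libraries, with 0 of 5 called in F1 and 1 of 5, Pecam1, in F2. Of 3 mossy cell markers, Csf2rb2 fell, with log2 fold changes of -1.86 in F1 and -2.02 in F2, and the others were not called. The 10 interneuron markers summed to 856 and 965 CPM in WT, 1160 and 878 in F1, and 991 and 1070 in F2, and 1 of 10 was called higher in F1 and 3 of 10 in F2. Of these, Slc32a1, the vesicular GABA transporter, rose in both comparisons, by 0.65 and 0.61 on the log2 scale. The list did not move as a whole: log2 fold changes were above 0 for 9 of 10 markers in F1 and 7 of 10 in F2. Those below 0 were Npy at -0.15 in F1, and Sst at -0.39, Npy at -0.31 and Pvalb at -0.01 in F2. The part of these cell types in the Htr2a result, or in that of Htr7, was not tested.

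Htr2c, the other Gq-coupled receptor, had 13.6 and 14 CPM in WT, 21.1 and 12.6 in F1, and 25 and 17.7 in F2. The libraries of F1 lay on both sides of WT, and both F2 libraries lay above it. The log2 fold change was 0.29 (SE 0.24, q = 0.419) in F1 and 0.63 (SE 0.23, q = 0.0406) in F2, so that neither passed the threshold. The F1 value was -0.12 without F1 replicate 1. Without a library of the groups compared, the F2 value stayed between 0.36 and 0.86, at 0.36 (q = 0.516) without F2 replicate 1, with q values of 0.224 and 0.143 without WT replicate 1 or 2 and 0.0199 without F2 replicate 2. It passed the threshold without F1 replicate 1 (q = 0.00411) or without F1 replicate 2 (q = 0.00362), and with the dispersion taken from WT and F2 alone (q = 0.00382).

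Among the Gs-coupled receptors, Htr7 had 5.38 and 6.58 CPM in WT, 10.6 and 9.58 in F1, and 8.74 and 8.13 in F2. The groups were fully separate, in the order WT, F2 and F1. Htr7 had a log2 fold change of 0.75 (SE 0.20, q = 0.00215) in F1 and 0.50 (SE 0.20, q = 0.0641) in F2, the first past the threshold and the second not. The difference between F2 and F1, at -0.26 (SE 0.20, q = 0.862), did not pass, so the data do not show that the 2 groups differ. The F1 call was lost without WT replicate 1 (log2 fold change 0.62, q = 0.1), without F1 replicate 1 (q = 0.0194) and in the quasi-likelihood test (q = 0.0127). Its log2 fold change was between 0.62 and 0.91 when single libraries were left out.

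Htr4, which raises cyclic AMP like Htr7, had 12.4 and 9.57 CPM in WT, 12.2 and 17 in F1, and 19.4 and 14.7 in F2. F1 overlapped with WT and F2 did not. For Htr4 the log2 fold change was 0.41 (SE 0.22, q = 0.176) in F1 and 0.63 (SE 0.22, q = 0.0245) in F2. Without F2 replicate 1 the F2 value was 0.42 (q = 0.4), without WT replicate 2 it was 0.46 (q = 0.269), without WT replicate 1 it was 0.84 (q = 0.0322) and without F2 replicate 2 it was 0.82 (q = 0.0202). As with Htr2c, it passed the threshold without F1 replicate 1 (q = 0.00712), without F1 replicate 2 (q = 0.008) and with the dispersion taken from WT and F2 alone (q = 0.00807).

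Htr3a, the channel subunit, had 3.94 and 4.26 CPM in WT, 7.72 and 4.14 in F1, and 4.11 and 4.75 in F2. A single library, F1 replicate 1, was high and all others lay close together. Its log2 fold change in F1 was 0.53 (SE 0.29, q = 0.182), and in F2 it was 0.11 (q = 0.853). It was 0.92 (q = 0.00319) without F1 replicate 2 and as low as 0.03 when the high library was left out. Interneuron markers had their highest sum in this library, at 1160 CPM against 878 in the other F1 library. Of the 10 markers, the peptide gene Sst had the widest gap, at 217 against 82.1 CPM. Slc32a1 differed little, at 43.6 against 41.8 CPM, and Reln alone was lower in this library, at 35.8 against 44 CPM. The part of interneurons in the high value of Htr3a was not tested.

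Counted by position alone, both F1 libraries lay above both WT libraries for Htr1b, Htr2a and Htr7, which is 3 of 9 receptors beside 29.8% of all genes tested. Both F2 libraries lay above both WT libraries for 7 of 9, all but Htr5b and Htr3a, beside 31% of all genes. Htr1b is in both counts, although its position rests on 5 to 11 reads per library, with the limit given above. No receptor had both F2 libraries below WT, where 32% of all genes had. A direct comparison of F2 with F1 called 0 of 9 receptors in edgeR's exact test, where 0.74% of all genes were called, and 0 at q under 0.05, where 1.32% were. The quasi-likelihood test and DESeq2 also called 0. At an unadjusted p under 0.05 the count was 1 in each of the 3 tests, and the gene was Htr1a, where 8.64% of all genes were under it in edgeR's exact test. Its log2 difference was 0.37 (SE 0.12, q = 0.12), higher in both F2 libraries. The granule cell markers Prox1, Calb1 and Stxbp6 had log2 differences of 0.42, 0.37 and 0.61, and 5 of 6 granule cell markers were above 0, with a median of 0.33 and none called. Their part in the Htr1a difference was not tested. Both F2 libraries were above both F1 libraries for 4 receptors, Htr1b among them, beside 19.4% of all genes, and below them for Htr7, beside 19.7%. Log2 differences were above 0 for 6 of 9 receptors and 49.8% of all genes.

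The genes that make serotonin or carry its signal were read in the same fit. Of 53 such genes, 49 were tested. In F1, 2 were called higher and 3 lower, and in F2, 4 higher and 3 lower, beside the 12.3 and 12% of all genes called. None of the genes for synthesis, transport and breakdown was called. Tph2, the neuronal tryptophan hydroxylase, lay between 0.668 and 1.26 CPM, with a log2 fold change of 0.89 (SE 0.36, q = 0.068) in F2. Log2 fold changes in F2 were 0.30 for Ddc, the decarboxylase, 0.05 for the vesicular transporter gene Slc18a2, 0.34 for Maoa and 0.30 for Maob, the enzymes that break serotonin down. Tph1 and Slc6a4 had too few reads to be tested.

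**Figure D5:**
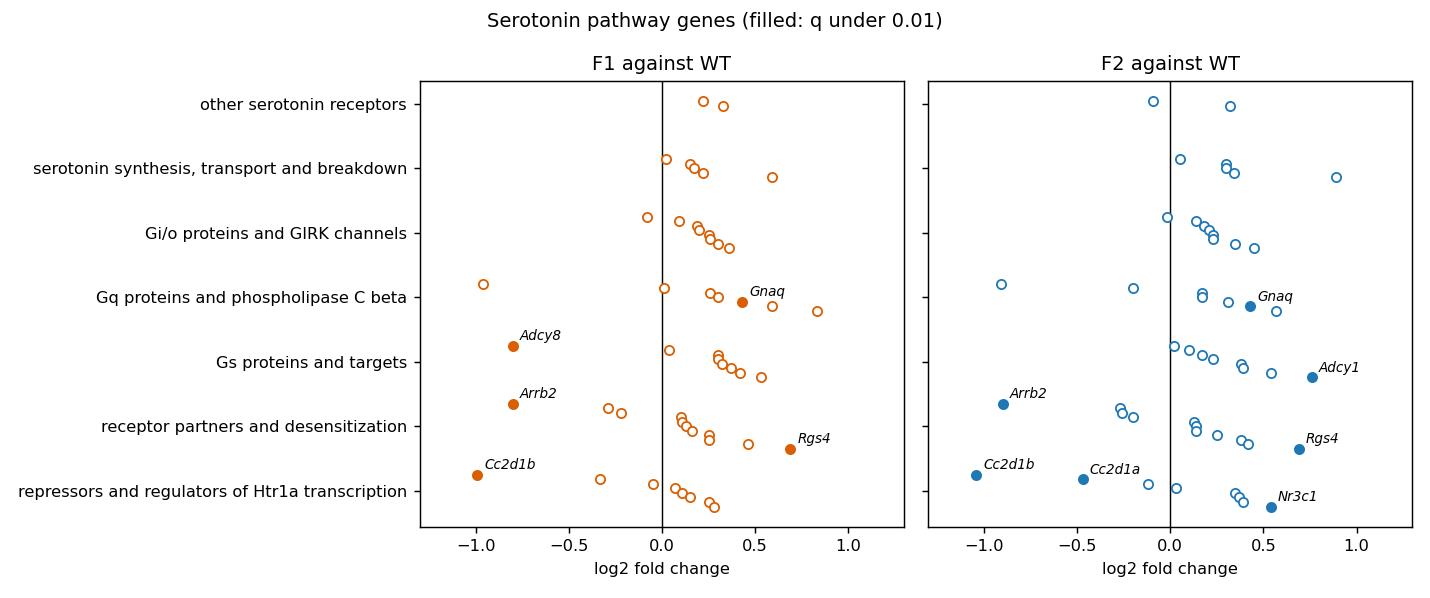
Log2 fold change of the 49 tested genes of the serotonin pathway lists, 1 row per list, for F1 and F2 against WT; filled points have a q value under 0.01 and are named. Arrb2 and Cc2d1b are filled and below 0 in both panels, and Rgs4 and Gnaq are filled and above 0 in both.

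Downstream of the receptors, Gnaq, which encodes the G protein that couples Htr2a to phospholipase C, had 169 and 168 CPM in WT, 200 and 251 in F1, and 238 and 215 in F2. All libraries of F1 and F2 were above WT. It rose by a log2 fold change of 0.43 in F1 (SE 0.13, q = 0.00973) and 0.43 in F2 (SE 0.13, q = 0.00928), so close to the threshold that only 4 of 16 alternatives called it in F1 and 6 of 16 in F2. Without WT replicate 1 or WT replicate 2 it was called in neither. Of the phospholipase genes, Plcb4 had a log2 fold change of 0.59 in F1 (q = 0.0142) and 0.57 in F2 (q = 0.0195), and Plcb2 had -0.96 (q = 0.0147) and -0.91 (q = 0.0238). None of the 8 genes for Gi/o proteins and GIRK channels, the partners of Htr1a, was called, beside 12.3 and 12% of all genes. With so few genes, this count does not set the list apart from all genes. At q under 0.05, the exact test passed Gnai1 (q = 0.0223) and Gnaz (q = 0.0444) for F1, beside 20.8% of all genes. For F2 it passed Gnai2 (q = 0.0146) and Kcnj6 (q = 0.0381), beside 20.7%. Log2 fold changes were above 0 for 7 of 8 genes in each comparison, with a median of 0.22 in F1 and 0.22 in F2.

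Of the genes for Gs proteins and their targets, 2 adenylyl cyclases were called, each in a single comparison with WT. Adcy8, a cyclase stimulated by calcium, had 26 and 28.3 CPM in WT, 13.4 and 17.7 in F1, and 28.2 and 26.9 in F2. It was low in F1 alone, with a log2 fold change of -0.80 (SE 0.16, q = 2.26e-05) there and 0.02 in F2. Adcy1, another calcium-stimulated cyclase, had 695 and 631 CPM in WT, 683 and 1030 in F1, and 1140 and 1110 in F2. It rose in F2 by 0.76 (SE 0.16, q = 0.000104), a call that was lost without WT replicate 2 and in the quasi-likelihood test, and its F1 value was 0.37 (q = 0.0902). For Adcy8 the difference between F2 and F1 itself passed the test (0.83, q = 0.000145), as the single pathway gene, beside 0.74% of all genes. It did not pass without F1 replicate 1, without F2 replicate 1 or in the quasi-likelihood test.

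Among receptor partners, the largest changes were a fall of Arrb2 and a rise of Rgs4. Arrb2, a beta-arrestin that takes active receptors out of signalling, had 133 and 104 CPM in WT, 71.2 and 65.1 in F1, and 61.4 and 65.4 in F2. Its log2 fold change was -0.80 in F1 (SE 0.14, q = 2.77e-07) and -0.90 in F2 (SE 0.14, q = 4.89e-09). Rgs4, which speeds the shut-off of Gi/o and Gq proteins, had 96.3 and 87.3 CPM in WT and between 146 and 150 in the other 4 libraries. It rose by 0.69 in both comparisons (SE 0.12), and both genes were called in 16 of 16 alternatives. The genes of editing enzymes that recode the Htr2c transcript were not called, with log2 fold changes in F2 of -0.20 for Adar and 0.42 for Adarb1.

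Of 8 genes that regulate Htr1a transcription, the repressor genes Cc2d1b and Cc2d1a were lower. Cc2d1b had 45.8 and 42.3 CPM in WT, 23.9 and 20.4 in F1, and 19.8 and 23 in F2. Its log2 fold change was -0.99 in F1 (SE 0.15, q = 2.79e-09) and -1.04 in F2 (SE 0.15, q = 4.85e-10), called in 16 of 16 alternatives. Cc2d1a fell by 0.47 in F2 (SE 0.12, q = 0.00136), a call lost without WT replicate 1, without F2 replicate 1, without F2 replicate 2 or in the quasi-likelihood test, and was at -0.33 in F1 (q = 0.0325). Nr3c1, the glucocorticoid receptor, had 57.7 and 69.9 CPM in WT and 102 and 82.9 in F2. It rose there by 0.54 (SE 0.15, q = 0.00263), a call lost without WT replicate 1, without F2 replicate 1 or in the quasi-likelihood test. Htr1a itself, as given above, was not called in either comparison.

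Genes were last ranked by the likeness of their pattern to the called receptors. The measure was the root mean square difference of log2 CPM over the 6 libraries, with 0.1 added to CPM and values centred on the WT mean. It was taken for 13678 candidate genes with a mean of at least 50 reads. Nearest to Htr2a were Sh3bgrl2 at 0.211, Tmem74 at 0.218 and Gm17614 at 0.229. Sh3bgrl2 had 11.2 and 8.69 CPM in WT and between 24.3 and 32.1 in the other libraries. Nearest to Htr7 were Trmt61b at 0.0694, Iyd at 0.0797 and Gm11818 at 0.0899. Trmt61b had 4.85 and 5.24 CPM in WT, 8.68 and 8.29 in F1, and 7.96 and 7.01 in F2. Its order of groups is that of Htr7 because it was picked for this likeness, so the match is no separate evidence.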

How the data were processed

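RNA-Seq read counts of 6 libraries of the ventral dentate gyrus were used, 2 each of WT, F1 and F2, grouped by their labels. According to the methods and processing notes of the study, the authors aligned single-end reads to mm9 with TopHat (TopHat2 2.0.2 in the processing notes) and deposited whole-number counts per gene from HTSeq in intersection-strict mode, without normalization. Reads that reached outside exons, aligned to several places or lay in exons of more than 1 gene were not counted. These, in rows that name no gene, were 35.3 to 46.6% of reads and were left out. The kit does not mark strand. Bisulfite libraries were not analysed here.

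Counts were filtered with filterByExpr, which kept 17421 of 34620 genes, scaled by TMM and tested with edgeR 4.0.16 (exact test) in R 4.3.3. Tagwise dispersion was estimated over the 3 groups, and p-values were adjusted over all tested genes by the Benjamini-Hochberg method at q under 0.01. The common coefficient of variation between replicates was 10.6%. RPKM used the union of exons in GENCODE M1, in which 32955 genes were matched by symbol. Counting intervals are exact Poisson intervals at 95% and cover counting error only. Promoters were found in the RefSeq table for 7 of the 10 receptors. The test was checked on simulated counts. Alternatives were the quasi-likelihood and likelihood-ratio tests, a replicate block, DESeq2 1.42.0, RLE scaling, library size alone, no filter, dispersion from the compared groups, q under 0.05, and leaving out each library. Replicates differed beyond sampling noise, with a chi-square per degree of freedom of 18.5 to 23.

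Named were all 10 receptors, the pathway genes called in F1 or F2 against WT, every other receptor and every gene of serotonin synthesis, transport and breakdown, up to 4 uncalled examples per list, and the 3 nearest patterns of each called receptor. The receptors, lists and rules were chosen with earlier results of these data known.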

Additional observations from a re-analysis of the deposited data

Results flagged for a closer look

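Of 104 pathway and marker genes tested, 2 differed between F2 and F1 in edgeR's exact test (Benjamini-Hochberg q under 0.01), which is 1.92%, beside 0.74% of all genes. Adcy8, a calcium-stimulated adenylyl cyclase, was higher in F2 than in F1 by 0.83 on the log2 scale (SE 0.16, q = 0.000145). Both F2 libraries, at 28.2 and 26.9 CPM, were above both F1 libraries, at 13.4 and 17.7 CPM. The call was made in 11 of 16 alternatives and was lost without F1 replicate 1, without F2 replicate 1 and in the quasi-likelihood tests. Bok, a cell death gene listed as a CA pyramidal cell marker, had a log2 difference of -0.75 (SE 0.16, q = 0.000576). It had 55.1 and 44.4 CPM in WT, 72.5 and 76.5 in F1, and 37.1 and 51.1 in F2. Of the 8 CA pyramidal cell markers, 3 had log2 differences above 0, Mpped1 at 0.49, Fibcd1 at 0.53 and Wfs1 at 0.25, and the list summed to 375 to 432 CPM over the 6 libraries. None of the 9 receptor genes tested met this criterion.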

How the results depend on the processing

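Across 16 alternatives each, the called log2 fold changes of Htr2a and Htr7 kept their direction. Uncalled values changed sign when a library was left out for Htr5b and Htr2c in F1, and for Htr5b and Htr3a between F2 and F1. In F1, the 2 called receptors became 1 in the quasi-likelihood test, 1 in DESeq2 and 0 in the quasi-likelihood test with a replicate block, and between 0 (without WT replicate 1) and 2 when single libraries were left out. In F2, the single called receptor became 3 with the dispersion of the compared groups and 3 at q under 0.05, and 1 to 3 without single libraries. For F2 against F1 every alternative gave 0 receptors. The 5 pathway genes called in F1 became 15 at q under 0.05 and 4 to 10 without single libraries (10 without F1 replicate 1). The 7 called in F2 became 3 in the quasi-likelihood test, 3 in that test with the replicate block, 11 in DESeq2, 13 with the dispersion of the compared groups, 19 at q under 0.05, and 4 to 14 without single libraries. For F2 against F1 the count of 1 became 0 in the quasi-likelihood test and 0 with the replicate block, and 0 to 2 without single libraries. The cause was not tested.

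Replicate numbers were shared between groups, but the correlations of deviations were -0.00861 for WT and F1, -0.0898 for WT and F2 and -0.23 for F1 and F2, so the numbers gave no pairing. With the replicate block, the likelihood-ratio test called 2 receptors in F1, 1 in F2 and 0 between them, and the quasi-likelihood test gave q values in F1 of 0.0135 for Htr2a and 0.0233 for Htr7. A block with crossed F2 numbers, chosen after seeing the data, gave 1 receptor in F1 and 0 pathway genes for F2 against F1 in the quasi-likelihood test, and 12 pathway genes in F2 in the likelihood-ratio test.

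Over all genes at q under 0.01, calls in F1 ranged from 848 to 2679 and in F2 from 703 to 2753 around the 2144 and 2085 reported, and at q under 0.05 they were 3623 and 3602. With 2 libraries a group, a fit without 1 library assumes that the lone library varies like the others. Htr1b and Htr1d had 5 to 12 reads per library, where 3 reads correspond to 0.0882 to 0.112 CPM, and for Htr1b most exon bases are shared with another gene.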
